A study of Mus musculus with 12 samples.

Results

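The terminal ileum of 6 female mice labelled IL10 was compared by the inoculum their mothers had received. The IL10_STAT group (n = 3) came from mothers given cecal contents that the labels call STAT and the title calls antibiotic-perturbed, and the IL10_control group (n = 3) from mothers given control contents. These 6 samples were chosen by their description label out of 12, and all genes of the deposited table were used. The other 6 samples, the WT_STAT and WT_control groups (n = 3 each), are C57-labelled mice under the same inocula and are used only for the difference between genotype labels.

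The design text calls the IL10-labelled pups IL10 deficient. The exposure was that of the mothers, and no age, litter, mother or cage is given in the sources used here, so mice of a group may share any of these and p-values measure the spread between these samples. Differences between mothers, litters or cages cannot be told apart from the inoculum. Whole ileum was measured, so fewer cells of a type and less RNA per cell cannot be told apart in any result.

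IL-10 is a cytokine that restrains macrophages and T helper cells in the gut wall, and mice without it develop bowel inflammation that depends on the resident microbes. Resident macrophages of the gut clear dead cells and bacteria with scavenger receptors, while recruited neutrophils and monocytes release calprotectin and IL-1. The epithelium adds its own signals, among them the cytokine IL-18 and the chemokine CCL25, which guides lymphocytes to the small bowel.

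RNA was counted on a NanoString nCounter panel, which tags each transcript with a coloured barcode probe. The deposited values are a normalized linear signal per gene. From their step size the barcode counts above background were 541733 to 717454 in the IL10_STAT samples and 398625 to 506141 in the IL10_control samples. After scaling by the authors the order was turned, with a summed signal of 504724 to 551302 in IL10_STAT and 559775 to 645272 in IL10_control. Pigr, the epithelial antibody transporter that marks ileal mucosa, had a signal of 24920 to 49179 in all 6 samples. Il10 gave 31.6, 49.2 and 38.6 in IL10_STAT and 35.2, 74.4 and 24.9 in IL10_control, against 0 to 1.02 in the C57-labelled samples, which runs against the genotype label. The transcript part that the Il10 probe binds is not given in the sources used here, and a probe outside the disrupted part checks nothing, so the mice are called IL10-labelled.

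The mice of the control inoculum were the less alike. Correlations of the median-centred log2 signal were 0.961 to 0.987 among the IL10_STAT samples and 0.872 to 0.945 among the IL10_control samples. The range over the 3 control samples was wider than over the 3 STAT samples for 321 of 457 tested genes (70.2%). On the first principal component of the 6 samples, which held 54.7% of the variance, IL10_control 3 lay at -13.7 and IL10_control 2 at 10.2, with the STAT samples at -3.25 to 4.90 and IL10_control 1 at -0.12 between them. Values below are given for replicates 1, 2 and 3 of each group in that order.

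No gene differed beyond the spread between samples after adjustment. In limma's test 0 of 457 genes (0%) passed an adjusted p of 0.05, and the lowest adjusted p was 0.102. Without adjustment 31 genes (6.78%) had a p under 0.05, 28 of them (6.13%) lower with STAT and 3 (0.656%) higher. For 106 genes (23.2%) the groups did not overlap, 97 lower (21.2%) and 9 higher (1.97%) in every STAT sample. Of all tested genes 360 (78.8%) had a difference below 0, and the median log2 difference was -0.22, so a gene near that value does not stand out from the panel. With each sample centred on its median, 56 genes (12.3%) did not overlap, 37 higher (8.1%) and 19 lower (4.16%). All 9 genes that were higher stayed apart after centring, and 17 of the 97 lower genes did. Centring moved the median difference from -0.22 to 0.06, which favours higher genes and works against lower ones. These counts therefore do not show that the higher genes are firmer. The count of genes apart was 190 without IL10_control 2 and 209 without IL10_control 3. Leaving out a sample cannot lower this count, since groups that do not overlap stay apart with fewer samples. The rise therefore does not show a clearer separation. With samples weighted by their fit to their group (array weights), 40 genes passed, all lower with STAT. The weights ran from 0.503 for IL10_control 2 and 0.580 for IL10_control 3 to 4.36 for IL10_STAT 3, and their estimate stopped before it had converged.

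**Figure D1:**
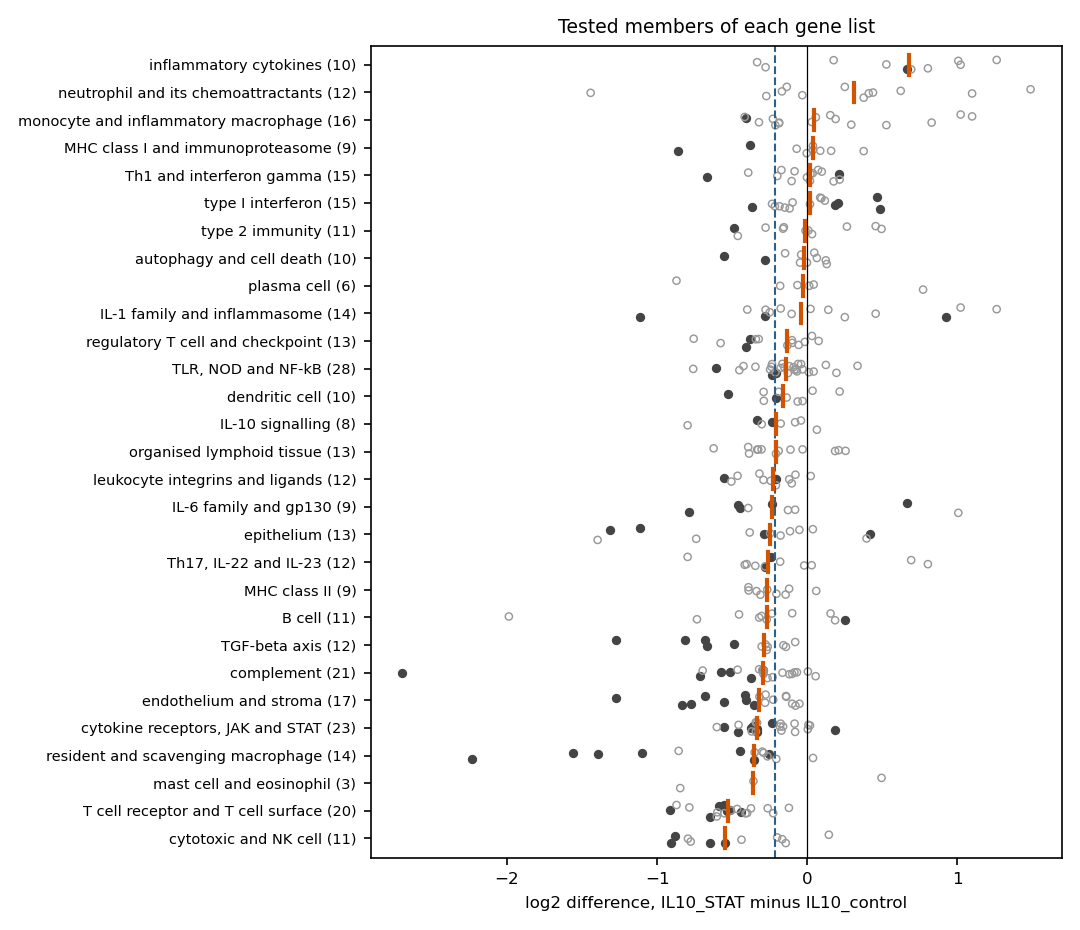
Log2 difference of IL10_STAT minus IL10_control (horizontal axis) for the tested members of each gene list (number in brackets). Filled points are genes whose groups do not overlap, open points the others, orange bars list medians, and the dashed line the median of all tested genes at -0.22. Inflammatory cytokines lie to the right with a median of 0.68 and cytotoxic and T cell genes to the left with -0.55 and -0.53.

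Members of the macrophage list differed among themselves by the inoculum, and none passed the test. Of 14 tested members of the resident and scavenging macrophage list, 0 passed, and the median was -0.35 beside -0.22 for all genes. In every STAT sample 7 were lower and 0 higher, beside 21.2% and 1.97% of all genes. After centring 3 were lower in every STAT sample, beside 4.16% of all genes. Cd163, the receptor that takes up haemoglobin bound to haptoglobin, had a signal of 25.9, 7.24 and 14.7 in IL10_STAT and 68.2, 46.7 and 109 in IL10_control. These correspond to 37, 7 and 18 barcode counts above background in STAT and 45, 42 and 75 in control, so the STAT level rests on few counts. Its log2 difference was -2.23 ± 0.45 (SE, 95% interval -3.22 to -1.24, adjusted p = 0.102 in limma's test). Over the alternative settings the difference ranged from -2.65 to -1.37.

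Cd36, a receptor for lipids and dying cells that epithelium and endothelium also carry, had 138, 148 and 178 in IL10_STAT and 289, 418 and 548 in IL10_control. The lowest control mouse was above the highest STAT mouse, and the difference was -1.39 ± 0.35 (adjusted p = 0.277). Maf, a transcription factor of resident macrophages and of some T cells, had 25.2, 45.2 and 35.3 in IL10_STAT and 92.3, 127 and 92.8 in IL10_control (-1.56 ± 0.47, adjusted p = 0.437). In contrast, the scavenger receptor Msr1 had 117, 111 and 115 in IL10_STAT and 158, 99.8 and 87.0 in IL10_control, and the groups overlapped (0.04 ± 0.29). Cd163, Cd36 and Maf stayed apart after median centring, at -1.96 for Cd163, -1.11 for Cd36 and -1.28 for Maf.

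General macrophage genes lay closer to the panel. Cx3cr1, the fractalkine receptor of gut macrophages, had 167, 179 and 161 in IL10_STAT and 274, 200.5 and 221 in IL10_control (-0.45 ± 0.23). Emr1, which encodes the pan-macrophage antigen F4/80, differed by -0.26 ± 0.20, and the growth factor receptor Csf1r by -0.29 ± 0.27. The complement genes of macrophages C1qa (-0.30 ± 0.21) and C1qb (-0.26 ± 0.20) overlapped between groups. Cx3cr1 and Emr1 were lower in every STAT sample as deposited, but overlapped after centring, where Emr1 was at 0.02. Marco, a scavenger receptor for bacteria, was at 23.8, 22.2 and 32.0 in IL10_STAT and 32.1, 163 and 33.6 in IL10_control, so that its difference of -1.10 ± 0.84 rested on IL10_control 2. Leaving out that mouse gave -0.34.

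**Figure D2:**
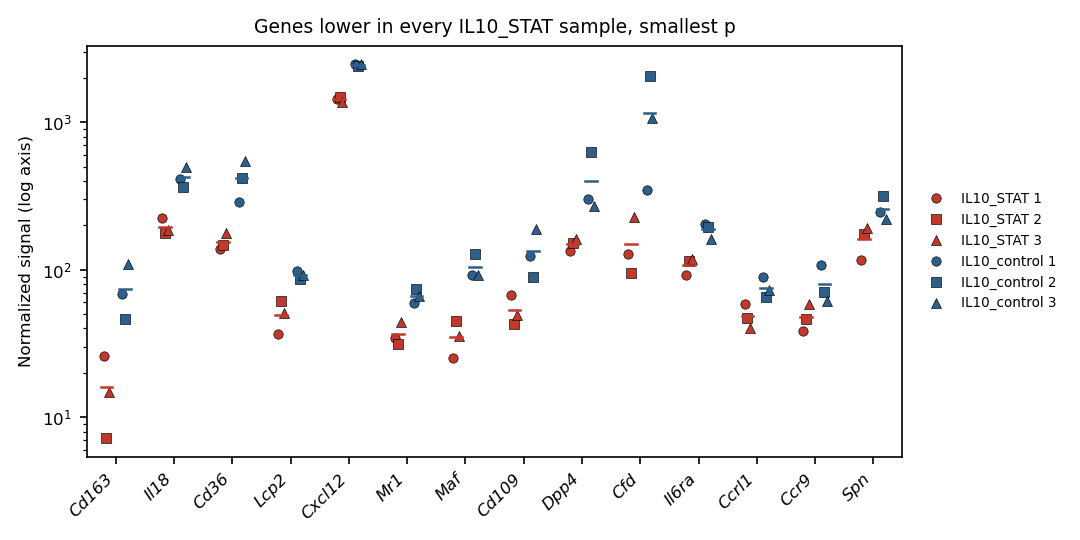
Normalized signal (log axis) of the 14 genes of smallest p that were lower in every IL10_STAT sample, IL10_STAT in red on the left and IL10_control in blue on the right of each gene. Symbols mark replicates 1 (circle), 2 (square) and 3 (triangle), and bars the group means. Cd163 is at 7.24 in IL10_STAT 2, and Cxcl12 is tight in both groups.

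Among epithelial genes the cytokine Il18 had the smallest p in limma's test as deposited, but not after centring. Of 13 tested members of the epithelium list 0 passed, and the median was -0.25. In every STAT sample 3 were lower and 1 was higher, beside 21.2% and 1.97% of all genes. Il18 had 224, 177 and 186 in IL10_STAT and 416, 364 and 497 in IL10_control. The difference was -1.11 ± 0.22 (95% interval -1.61 to -0.62, adjusted p = 0.102). After centring it was -0.84 (adjusted p = 0.742 in limma's test). Dpp4, a brush border peptidase that T cells also carry, had 134, 152 and 161 in IL10_STAT and 299.8, 625 and 270.4 in IL10_control (-1.31 ± 0.43, adjusted p = 0.543). After centring Dpp4 was at -1.03 with an adjusted p of 0.314 in limma's test, below that of Il18. Abundant epithelial genes overlapped between groups, with Pigr at -0.18 ± 0.40, the adhesion gene Ceacam1 at -0.05 ± 0.30 and the catenin Ctnnb1 at -0.11 ± 0.28.

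The small-bowel chemokine Ccl25 and its receptor Ccr9 were both among the 31 genes. Ccl25 had 85.0, 80.1 and 90.6 in IL10_STAT and 195, 676 and 87.0 in IL10_control, so IL10_control 3 lay inside the STAT range (-1.40 ± 0.57, adjusted p = 0.718). The Ccl25 difference was -0.61 without IL10_control 2 and -2.08 without IL10_control 3. Ccr9, carried by lymphocytes that home to the small bowel, had 38.6, 46.2 and 58.4 in IL10_STAT and 107, 71.1 and 61.0 in IL10_control (-0.71 ± 0.27, adjusted p = 0.694). Ccrl1, a receptor that removes CCL25 and related chemokines, had 58.3, 47.2 and 40.3 in IL10_STAT and 89.3, 65.5 and 72.6 in IL10_control (-0.64 ± 0.23, adjusted p = 0.624). Ccr9 and Ccrl1 did not overlap as deposited and overlapped after centring. This grouping was made after the values were seen.

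Stromal and vascular genes all lay below 0 as deposited, and were close to the panel after centring. Of 17 tested members of the endothelium and stroma list 17 had a negative difference, beside 78.8% of all genes, 8 were lower in every STAT sample, beside 21.2% of all genes, and 0 passed. At an unadjusted p under 0.05 in limma's test 4 were lower, beside 6.13% of all genes. The list median was -0.32 beside -0.22 for all genes, and -0.04 beside 0.06 after centring. Only 1 member stayed apart and lower after centring, beside 4.16% of all genes. That member was Cxcl12, the stromal chemokine that retains lymphocytes and progenitors, with 1437, 1489.9 and 1372 in IL10_STAT and 2477, 2390.3 and 2477 in IL10_control (-0.77 ± 0.23, adjusted p = 0.437). It varied little within either group, with a log2 range of 0.12 over IL10_STAT and 0.05 over IL10_control. Its SE pools the spread of all 12 samples, C57-labelled ones included. Cd34, an antigen of endothelium and fibroblasts, had 334, 199.9 and 241 in IL10_STAT and 474, 356 and 543 in IL10_control (-0.84 ± 0.32, adjusted p = 0.694). The platelet-derived growth factor chain Pdgfb (-0.68 ± 0.31), the endothelial adhesion gene Icam2 (-0.55 ± 0.28) and fibronectin, Fn1 (-0.35 ± 0.29), did not pass either.

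Members of the TGF-beta axis, which restrains T cells and drives wound repair, showed a like pattern. All 12 tested members were below 0 (78.8% of all genes were), with a median of -0.29 near that of all genes. Of the 12, 5 were lower in every STAT sample (21.2% of all genes were), and none of these stayed apart after centring. Cd109, a co-receptor that dampens TGF-beta signalling, had 67.4, 43.2 and 49.3 in IL10_STAT and 124, 89.9 and 189.5 in IL10_control (-1.28 ± 0.39, adjusted p = 0.444). The ligand Tgfb3 had 67.4, 58.2 and 64.2 in IL10_STAT and 118, 82.1 and 106 in IL10_control (-0.67 ± 0.26, adjusted p = 0.694). For both genes the highest STAT mouse was below the lowest control mouse.

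None of the T cell genes passed the test. All 20 tested members of the T cell list were below 0, as were 78.8% of all genes, and the median was -0.53 beside -0.22 for all genes. Of the 20, 7 were lower in every STAT sample, as were 21.2% of all genes, and 5 of them remained so after centring, where 4.16% of all genes were lower. Lcp2, the adaptor SLP-76 behind the T cell receptor, had 36.5, 61.2 and 51.0 in IL10_STAT and 98.3, 86.5 and 92.8 in IL10_control (-0.92 ± 0.23, adjusted p = 0.277). The receptor chain Cd3d had 234, 276 and 275 in IL10_STAT and 349, 423 and 302 in IL10_control (-0.44 ± 0.20, adjusted p = 0.718). Its partner Cd3e differed by -0.52 ± 0.35 and the kinase Fyn by -0.53 ± 0.32, and neither overlapped between groups.

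Outside that list, Spn, the sialophorin of leukocytes, had 117, 176 and 193 in IL10_STAT and 246, 314 and 219.9 in IL10_control (-0.70 ± 0.27, adjusted p = 0.694). Cxcr3, the receptor for interferon-induced chemokines on effector T cells, had 53.4, 76.1 and 61.7 in IL10_STAT and 107, 108 and 88.4 in IL10_control (-0.67 ± 0.36, adjusted p = 0.823). Mr1, which presents microbial vitamin B metabolites to mucosal-associated invariant T cells, had 34.4, 31.2 and 44.4 in IL10_STAT and 59.2, 74.4 and 66.8 in IL10_control (-0.86 ± 0.25, adjusted p = 0.437). All 3 genes stayed apart after centring.

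The cytotoxic and NK cell list had 11 tested members and a median of -0.55 beside -0.22 for all genes. Of the 11, 4 were lower in every STAT sample, beside 21.2% of all genes. After centring 0 were apart, beside 12.3% of all genes. Gzma, a granule protease of intraepithelial T cells, had 296, 321 and 341 in IL10_STAT and 808, 427 and 624 in IL10_control (-0.91 ± 0.50, adjusted p = 0.823). Cd244, a receptor of NK and cytotoxic T cells, had 77.3, 88.1 and 79.8 in IL10_STAT and 142, 116 and 127 in IL10_control (-0.64 ± 0.26, adjusted p = 0.718). Klrd1, the CD94 chain, differed by -0.55 ± 0.24. Regulatory T cell genes lay near the panel with a median of -0.13. Their lineage factor Foxp3 had 31.6, 35.2 and 44.4 in IL10_STAT and 51.7, 47.8 and 45.1 in IL10_control (-0.38 ± 0.95, 95% interval -2.47 to 1.70). The Foxp3 groups did not overlap, and its log2 range was 0.48 over IL10_STAT and 0.19 over IL10_control. Its SE pools the spread of all 12 samples, C57-labelled ones included.

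Complement had 21 tested members with a median of -0.29, of which 6 were lower in every STAT sample, near the 21.2% of all genes. Cfd, the protease of the alternative pathway that fat cells also secrete, had 127, 95.1 and 229 in IL10_STAT and 349, 2068 and 1063 in IL10_control (-2.70 ± 0.89, 95% interval -4.66 to -0.73, adjusted p = 0.543). The groups did not overlap, and the control mice ranged widely among themselves. Without IL10_control 2 the difference was -2.11. C3, the central component, had 1280.3, 1636 and 1716 in IL10_STAT and 2772, 3323 and 1661 in IL10_control (-0.70 ± 0.30). Itln1, an intelectin that binds microbial sugars, was between 56.2 and 106 in 5 samples and at 4744 in IL10_control 2. Its difference of -2.33 ± 1.14 was -0.50 without that mouse.

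Only 9 genes were higher in every STAT sample, and none passed. Il1rn, the antagonist of the IL-1 receptor, had 1491, 1608 and 1548 in IL10_STAT and 1041, 878 and 589.5 in IL10_control (0.93 ± 0.33, 95% interval 0.20 to 1.65, adjusted p = 0.624). The cytokine Lif, of the IL-6 family, had 159.6, 193 and 155 in IL10_STAT and 124, 137 and 69.7 in IL10_control (0.66 ± 0.29, adjusted p = 0.718). Nox1, the epithelial NADPH oxidase, had 2649, 2012 and 2344 in IL10_STAT and 1936, 1564 and 1733 in IL10_control (0.42 ± 0.36). Blnk, an adaptor of the B cell receptor, differed by 0.25 ± 0.21 while other B cell genes overlapped.

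The remaining 5 of the 9 are interferon-induced genes. Irf7, the master regulator of type I interferon, had 556, 754 and 637 in IL10_STAT and 509, 466 and 429 in IL10_control (0.46 ± 0.18, adjusted p = 0.718). Ifit2, which binds viral RNA, had 971, 1147 and 1015 in IL10_STAT and 733, 672 and 835 in IL10_control (0.49 ± 0.34, adjusted p = 0.838). Smaller differences were seen for the virus tether Bst2 (0.20 ± 0.17), the signal transducer Stat2 (0.19 ± 0.44) and the chemokine Cxcl9 (0.21 ± 0.26). The SE pools all 12 samples, and the log2 range of Stat2 was 0.32 over IL10_STAT and 0.07 over IL10_control. For Cxcl9 the gap was within rounding, with 2053 in both IL10_STAT 2 and IL10_control 2. The type I interferon list had 15 tested members and a median of 0.02, with 4 higher and 1 lower in every STAT sample, beside 1.97% and 21.2% of all genes. Apart from these, Mx1 (-0.12 ± 0.25) and Ifih1 (0.12 ± 0.34) of the same pathway overlapped between groups.

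**Figure D3:**
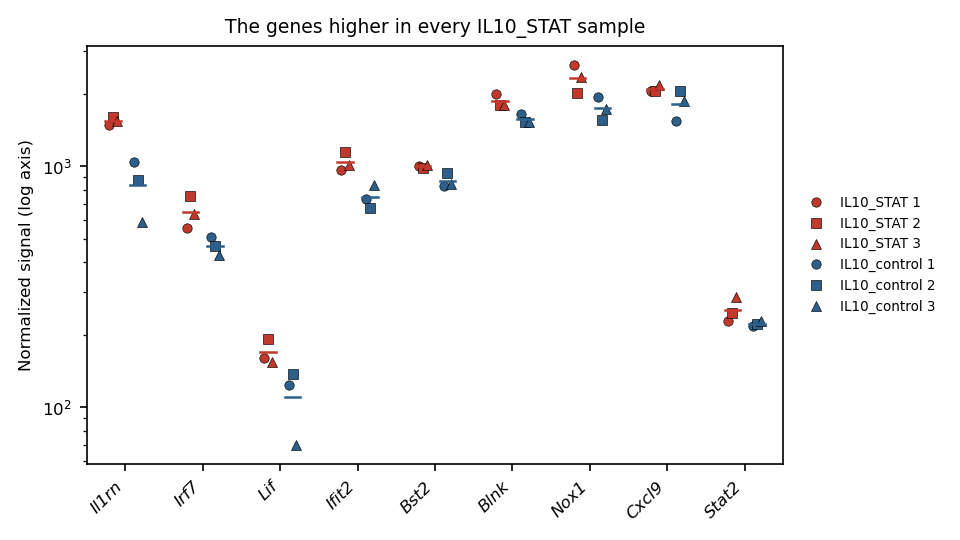
Normalized signal (log axis) of the 9 genes that were higher in every IL10_STAT sample, IL10_STAT in red on the left and IL10_control in blue on the right of each gene. Symbols mark the replicates and bars the group means. Il1rn shows the widest gap, with 1491 as the lowest STAT and 1041 as the highest control value.

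The upstream sequence of these 9 genes is shown where it holds the letters of an interferon response element. The motif of GAAA, any 2 bases and GAAA was searched on both strands in the 250 bases before each start, with copies allowed to overlap, in RefSeq promoters of GRCm38.p6. It was found in 2 of the 9 genes, Bst2 with 2 overlapping copies and Stat2 with 1, in 5.9% of the 339 of 457 tested genes that have a promoter entry, and in 3.46% of 27025 genes with one. Each window below has 60 bases, 5′ to 3′ on the gene's strand, with the motif in capitals. That of Bst2 is chr8:71537563-71537622 on the minus strand and that of Stat2 is chr10:128270256-128270315 on the plus strand.
Bst2: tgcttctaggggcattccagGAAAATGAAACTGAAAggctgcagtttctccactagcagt
Stat2: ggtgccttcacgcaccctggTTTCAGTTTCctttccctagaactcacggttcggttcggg
A match is a description of these letters and not of binding, and binding was not measured.

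Cytokine and neutrophil genes had the highest list medians and a wide spread, and the direction of several hung on a single control mouse. The inflammatory cytokine list had a median of 0.68 over 10 tested members, with 1 higher in every STAT sample. The neutrophil list had 0.31 over 12, with none apart. Of all genes 1.97% were higher in every STAT sample and 23.2% were apart. Il1b, the main IL-1 of myeloid cells, had 547, 2030 and 1393 in IL10_STAT and 1357, 1277 and 106 in IL10_control (1.02 ± 0.87, 95% interval -0.91 to 2.95). IL10_control 3 alone was below all STAT mice. Without it the difference was -0.19.

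The calprotectin subunit S100a8 had 1009, 4613 and 2764 in IL10_STAT and 1712, 18686 and 161 in IL10_control (0.44 ± 1.58). The lowest and highest of the 6 mice were thus both in the control group. It was at -1.27 without IL10_control 3 and at 2.16 without IL10_control 2. Its partner S100a9 had 698, 2650 and 1853 in IL10_STAT and 1208, 9999 and 120.2 in IL10_control (0.41 ± 1.27). The neutrophil chemokine Cxcl3 had 59.01, 530.4 and 226 in IL10_STAT and 190.05, 239 and 6.14 in IL10_control (1.49 ± 1.15, and -0.15 without IL10_control 3).

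Il6 had 61.1, 86.1 and 45.2 in IL10_STAT and 54.7, 76.6 and 6.14 in IL10_control (1.007 ± 1.10, and -0.06 without IL10_control 3). Tnf had 189.9, 342 and 244 in IL10_STAT and 193, 224 and 122 in IL10_control (0.53 ± 0.57). Nos2, the inducible nitric oxide synthase of myeloid and epithelial cells, had 551, 1009 and 792 in IL10_STAT and 757, 704 and 732 in IL10_control (0.06 ± 0.34, 95% interval -0.68 to 0.80). None of these cytokines separated the groups as deposited. After centring Tnf, Il12b, Il17a and Il17f joined Lif as higher in every STAT sample. These were 5 of 10 tested members of the inflammatory cytokine list. Of all genes 8.1% were higher in every STAT sample after centring, beside 1.97% as deposited.

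Low cytokines were close to background. Il17a had 23.8, 29.2 and 44.4 in IL10_STAT and 21.6, 34.6 and 9.03 in IL10_control (0.69 ± 0.66), and Il17f 24.5, 26.2 and 21.3 in IL10_STAT and 21.6, 10.2 and 10.5 in IL10_control (0.80 ± 0.61). Ifng and Il22 did not reach the filter of 20 in 3 samples and were not tested. Ifng, the Th1 cytokine, was at 10.5, 33.2 and 27.9 in IL10_STAT and 9.59, 12.4 and 6.14 in IL10_control, and Il22, which acts on epithelium, was between 0 and 9.76 in all 6 samples.

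B cell genes followed the same mice. Ms4a1, which encodes the surface protein CD20, had 319, 351 and 321 in IL10_STAT and 480.3, 855 and 62.5 in IL10_control (0.16 ± 0.90). The STAT mice were alike and lay between IL10_control 3 and the other control mice. The summed signal of the 13 B cell genes in the table was 2880.04 to 2959 in IL10_STAT and 1895 to 4359 in IL10_control. That of the 17 neutrophil genes was 2419 to 9027 in IL10_STAT and 738 to 31407 in IL10_control. The part of these cells in the other differences was not tested. Without IL10_control 3, the mouse low in both, Cd163 was at -1.92, Il18 at -0.996 and Maf at -1.63. Without IL10_control 2, the mouse high in both, Cd163 was at -2.52, Il18 at -1.22 and Maf at -1.41.

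**Figure D4:**
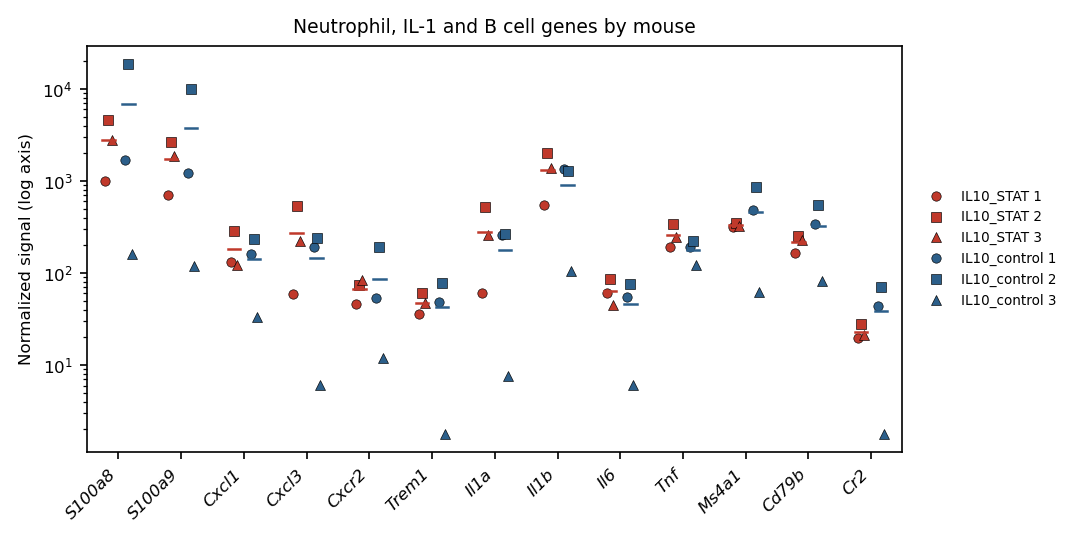
Normalized signal (log axis) of neutrophil, cytokine and B cell genes, IL10_STAT in red on the left and IL10_control in blue on the right of each gene. Symbols mark the replicates and bars the group means. IL10_control 3 (blue triangle) is the lowest of the 6 mice for all 13 genes, and IL10_control 2 (blue square) is the highest for S100a8 at 18686.

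In several further groups few or no genes were apart. Of all genes 23.2% were apart. MHC class II genes had a median of -0.27 over 9 tested members with none apart, and the invariant chain Cd74 was at -0.20 ± 0.23. Plasma cell genes had a median of -0.03 over 6 members with none apart, above the -0.22 of all genes. Organised lymphoid tissue genes were at -0.21 over 13 members with none apart. Their mean log2 signal was 6.55, 6.89 and 6.88 in IL10_STAT and 7.31, 7.67 and 5.85 in IL10_control. The STAT mice thus lay between IL10_control 3 and the other control mice. The TLR, NOD and NF-kB list was at -0.14 over 28 members. In every STAT sample 3 were lower and 0 higher, beside 21.2% and 1.97% of all genes. Il10 itself differed by -0.04 ± 0.38 (95% interval -0.88 to 0.79) and by 0.24 after centring, while its receptor chains Il10ra (-0.30 ± 0.27) and Il10rb (0.06 ± 0.19) overlapped between groups.

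Whether these differences belong to the IL10 label was tested against the C57-labelled mice in the same fit. No gene passed for the difference between the STAT effects (0 of 457, 0%, lowest adjusted p = 0.0815 in limma's test), with 97 at an unadjusted p under 0.05 (21.2%). Without WT_STAT 3 58 genes passed, and 1 passed without WT_STAT 2 and 1 without WT_control 3, so this count hung on C57-labelled samples. With array weights, which changed the weight of samples under both labels, 132 passed. Of the 31 genes above, 23 (74.2%) had the opposite sign in the C57-labelled mice, where the panel median was 0.24, and so did 322 of all 457 genes (70.5%). The C57-labelled samples were dimmer, with a summed signal of 270388 to 379011 in WT_STAT and 213509 to 341946 in WT_control, and the part of this in the difference was not tested. In those mice the groups did not overlap for 73 genes (16%), 72 (15.8%) higher and 1 (0.219%) lower in every STAT sample. The 97 genes lower with STAT in IL10-labelled mice and the 72 higher with STAT in C57-labelled mice shared 10, which is 10.3% of the 97 (15.8% of all genes were higher in C57-labelled STAT samples) and 13.9% of the 72 (21.2% of all genes were lower in IL10-labelled STAT samples). The overlap was thus no larger than these shares of all genes.

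Those 10 were Spn, Batf3, Icam2, Cx3cr1, Card9, Cd48, Cmklr1, Emr1, Ccl8 and Il27ra. Batf3, a factor of cross-presenting dendritic cells, had 25.2, 42.2 and 41.1 in IL10_STAT and 47.2, 48.9 and 58.1 in IL10_control. Its difference was -0.53 ± 0.22 in the IL10 label and 1.06 ± 0.22 in the C57 label (adjusted p of the difference 0.0815). The fungal sensing adaptor Card9 was at -0.61 ± 0.38 and 1.11 ± 0.38 in the IL10 and C57 labels (adjusted p = 0.11 for the difference). After centring, 9 of these 10 overlapped in IL10-labelled mice, the exception being Spn. Of all 97 lower genes only 17 stayed apart and lower after centring, so this loss was not particular to the 10. The 3 genes higher in every STAT sample under both labels were Bst2, Nox1 and Cxcl9. Of all genes 1.97% were higher in every IL10-labelled STAT sample and 15.8% in every C57-labelled one. For Cxcl9 the gap in IL10-labelled mice was within rounding.

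**Figure D5:**
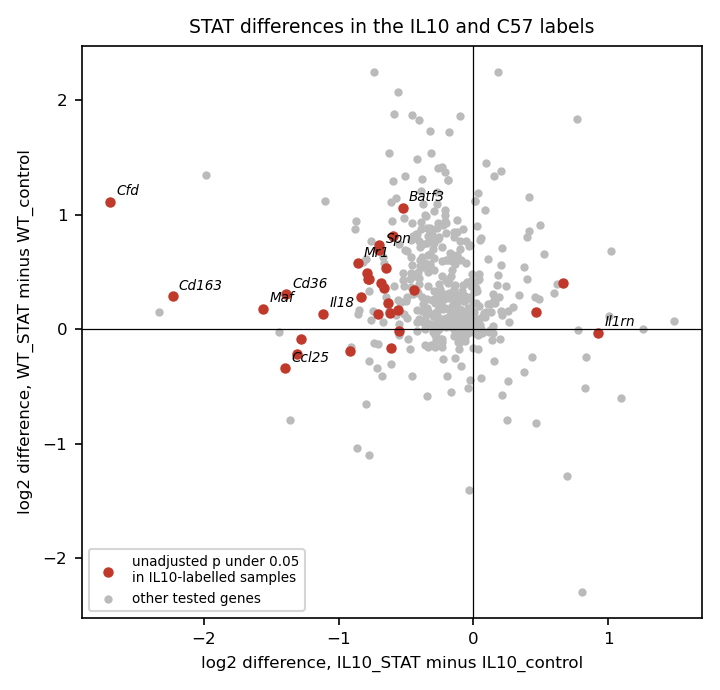
Log2 difference of STAT minus control for each tested gene in IL10-labelled mice (horizontal axis) and C57-labelled mice (vertical axis). Red points are the 31 genes at an unadjusted p under 0.05 in IL10-labelled mice, most of them in the upper left, and grey points the other tested genes.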

How the data were processed

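Terminal ileum RNA of 12 female mice was counted on an nCounter panel of 547 genes. The deposited values are a normalized linear signal per gene, as the authors gave it in the series value table, and the background and scaling steps behind it are not given in the sources used here. Values were whole steps above each sample's lowest (tolerance 0.01), which gave the counts above background. A gene was tested if 3 or more of the 12 samples reached 20, which kept 457 and left out 90. log2(signal + 1) was fitted with limma 3.58.1 in R 4.3.3 over 4 groups of 3, with Benjamini-Hochberg adjustment over the 457 genes. The added 1 shrinks fold changes of low genes, but those resting on few counts also depend on the setting and may be too large. The fit pools the spread of all 12 samples. An exact permutation test of 3 against 3 cannot go below 0.1. The fit was checked on simulated data. The 30 gene lists (29 with tested members) and the comparison were chosen with earlier results of these data known. Genes named were, by rule, Il10, those at an unadjusted p under 0.05, the 10 largest differences each way among genes whose groups did not overlap and whose mean signal reached 40 in a group, up to 4 members per list by smallest p, and fixed inflammatory genes (Ifng, Tnf, Il1b, Il6, Il17a, Il22, Nos2, Foxp3, S100a8 and S100a9). Other genes were named after their values were seen. Symbols matched RefSeq for 531 genes currently and 14 as synonyms, and 2 did not match. Promoters are from RefSeq, GRCm38.p6. Scaling, filter, pseudocount, weights and left-out samples were varied.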

Additional observations from a re-analysis of the deposited data

How the results depend on the processing

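In limma's test no gene passed for STAT against control in IL10-labelled mice under any of the 22 alternatives except array weights, where 40 passed, all lower. The difference between genotype labels gave 132 genes with array weights and 0 to 58 when a sample was left out. The count of genes apart was 56 after median centring (37 higher, 19 lower), 54 after quantile normalization (30 higher, 24 lower), 72 when scaled on 9 broadly expressed genes (23 higher, 49 lower), a scaling chosen after seeing the data, and 120 to 209 when a sample was left out. Leaving out a sample cannot lower the count of genes apart, so that range shows no clearer separation. The panel median was 0.061 after centring and 0.014 after quantile normalization, against -0.22 as deposited. Among 125 named genes these turned sign. Under median centring Il10 was at 0.24, Stat3 at 0.042, Myd88 at 0.040, Cd74 at 0.072, Tnfrsf13b at 0.0068, Irf4 at 0.097, Xbp1 at 0.21 and Itgax at 0.068. Under quantile normalization Il10 was at 0.28, Il10ra at 0.0018, Btk at 0.026, Tnfrsf13b at 0.075, Irf4 at 0.14, Xbp1 at 0.075, Itgax at 0.077 and Fas at 0.086. With array weights Il10 was at 0.15, Camp at 0.60 and Il1rl1 at -0.086. With 9 broadly expressed genes Il10 was at 0.097 and Xbp1 at 0.073, and with values under 20 set to 20 Il12a was at 0.0044. Leaving out 1 sample gave ranges of -0.38 to 0.39 for Il10, -2.63 to 0.53 for Camp, -0.91 to 0.051 for Il12a, -0.15 to 0.29 for Nos2, -1.27 to 2.16 for S100a8, -1.20 to 1.98 for S100a9, -0.0086 to 0.39 for Cxcl11, -0.34 to 0.029 for Irf4, -0.16 to 0.0064 for Xbp1, -0.15 to 2.39 for Cxcl3, -0.39 to 2.01 for Trem1, -0.21 to 1.17 for Cxcl1, -0.19 to 1.65 for Il1b, -0.39 to 2.12 for Il1a, -0.049 to 0.72 for Il1rl1 and -0.061 to 1.66 for Il6. The cause was not tested. Scaling on housekeeping genes was not run, since none of the 14 is in the table. No paired analysis was possible because the labels give no replicate number or litter shared between groups. Signals near 20 rest on few counts, so differences of low genes were not detectable at this depth unless large.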
